A study of Homo sapiens and Mus musculus with 22 samples.

Results

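The 9 genes described here belong to the signalling systems that build and maintain blood vessels: the angiopoietins ANGPT1 and ANGPT2 and their receptor TEK, the vascular endothelial growth factor (VEGF) receptors FLT1 and KDR, the transforming growth factor beta coreceptor endoglin (ENG), and the endothelial proteins von Willebrand factor (VWF), PECAM1 and CDH5. They were chosen from measured values in earlier results of the same libraries, namely the levels of ENG and VWF in H69M against H69 and the endothelial genes called in the comparisons, so their differences below are a description and are given without p-values. The members are 9 of the 34365 gene symbols in the deposited count tables, taken by symbol. The H69 table has a row for all 9, the H69EZ table for 8 (PECAM1 was not analysed there) and the mouse table for all 9. After a filter on low counts, 8 members in the H69 table, 8 in the H69EZ table and 7 in the mouse table were tested.

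The study sequenced RNA from small cell lung cancer (SCLC) lines that differ in surface MHC class I, the complex that presents antigen to cytotoxic T cells. The human SCLC line NCI-H69, called H69 here, has little or no MHC class I, and its derivative H69M is MHC class I high. H69M was also sorted into a fraction low or negative for PD-L1, which was MHC class I low, and a fraction high for PD-L1, which was MHC class I high. To make H69EZ, H69 cells were exposed for 6 days to an inhibitor of the histone methyltransferase EZH2, then grown drug-free while adherent cells were selected, and H69EZ was sorted into HLA-ABC low or negative and HLA-ABC high fractions. The mouse SCLC line 631RPP (RPP) is MHC class I low, and 631RPP-A (RPP-A) is its MHC class I high derivative selected for adherent growth. No normal endothelium was among the groups. Both H69EZ fractions came from cells with the same drug exposure, and H69M, H69EZ and RPP-A are each a single derived line. There were 3 libraries per group except for 2 in each H69EZ fraction, giving 22 libraries in 8 groups and 5 comparisons.

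TEK is a receptor tyrosine kinase of endothelial cells: ANGPT1 activates it and keeps vessels quiet, while ANGPT2 is a context-dependent partner that often opposes ANGPT1. FLT1 and KDR bind VEGF, KDR being the main signalling receptor and FLT1 often acting as a decoy. ENG presents BMP9 and related ligands to the ALK1 receptor, VWF is a clotting glycoprotein stored by endothelium and platelets, and PECAM1 and CDH5 (VE-cadherin) hold endothelial cells together. In lung tumours these genes are mainly known from the vessels rather than from the tumour cells.

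Total counts were 12814594 to 26834561 per library in the H69 table, 40568796 to 52458228 in the H69EZ table and 10817795 to 19973785 in the mouse table. Levels are given as CPM, reads of a gene per megaread of its library, with library totals corrected for composition. The labels held up against the sorted proteins: CD274, which encodes PD-L1, was at 0.265 CPM ± 0.152 (SD, n = 3) in the PD-L1 low and 13.3 ± 0.423 in the PD-L1 high fraction. The MHC class I light chain gene B2M was at 155 CPM ± 0.515 (SD, n = 2) in the HLA low and 802 ± 44.4 in the HLA high fraction. The SCLC neuroendocrine factor gene INSM1 was at 2373 CPM in the PD-L1 low and 687 CPM in the PD-L1 high fraction, at 1359 and 209.9 CPM in the HLA low and high fractions, and at 298 and 1.55 CPM in RPP and RPP-A. H69M and H69 were close in INSM1, at 244% and 237% of its PD-L1 high level. For B2M these lines were at 25.8% and 14.8% of the PD-L1 high level, and for CD274 at 30.2% and 0.587%. Of the mouse libraries, EHK_RPP4 stood apart from the other RPP libraries and RPPM3 from the other RPP-A libraries, and mouse values that changed call or moved by over 1.5 times without them are given both ways. A count of 0 allows a level of up to 3 counts, which is 0.113 to 0.242 CPM per library in the H69 table, 0.0593 to 0.0782 in the H69EZ table and 0.172 to 0.244 in the mouse table. Because the libraries are bulk RNA, fewer cells of a type and less RNA per cell cannot be told apart in any of these values.

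The proximal promoters of the receptors TEK, FLT1 and KDR and of ENG are shown because promoter windows were available for these 4 members only. All 4 were called higher in both sorts. ANGPT1 and VWF were called higher in both sorts too, but no window was available for them. Each window shown is the 250 bases upstream of the first start listed in RefSeq on GRCh38.p14, 5′ to 3′ on the strand of the gene. TEK lies on the plus strand (chr9:27108975-27109224), FLT1 on the minus strand (chr13:28495129-28495378), KDR on the minus strand (chr4:55125596-55125845) and ENG on the minus strand (chr9:127854659-127854908). Capitals mark GGAA, or TTCC where it is read on the other strand, the core letters bound by ETS factors such as ERG and FLI1, which direct endothelial genes.
TEK: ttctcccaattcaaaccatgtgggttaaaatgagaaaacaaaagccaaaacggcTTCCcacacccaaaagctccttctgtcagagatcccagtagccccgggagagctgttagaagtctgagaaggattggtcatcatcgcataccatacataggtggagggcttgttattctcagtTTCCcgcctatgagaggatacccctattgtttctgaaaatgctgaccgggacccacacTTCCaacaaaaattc
FLT1: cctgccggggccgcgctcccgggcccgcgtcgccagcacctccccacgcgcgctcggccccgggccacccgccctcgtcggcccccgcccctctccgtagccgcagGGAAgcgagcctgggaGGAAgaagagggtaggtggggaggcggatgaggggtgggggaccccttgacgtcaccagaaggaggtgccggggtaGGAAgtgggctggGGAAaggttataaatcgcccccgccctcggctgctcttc
KDR: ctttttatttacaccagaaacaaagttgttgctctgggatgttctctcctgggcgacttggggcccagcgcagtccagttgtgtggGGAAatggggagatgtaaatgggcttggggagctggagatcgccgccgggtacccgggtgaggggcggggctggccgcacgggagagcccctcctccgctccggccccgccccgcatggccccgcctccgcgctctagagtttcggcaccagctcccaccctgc
ENG: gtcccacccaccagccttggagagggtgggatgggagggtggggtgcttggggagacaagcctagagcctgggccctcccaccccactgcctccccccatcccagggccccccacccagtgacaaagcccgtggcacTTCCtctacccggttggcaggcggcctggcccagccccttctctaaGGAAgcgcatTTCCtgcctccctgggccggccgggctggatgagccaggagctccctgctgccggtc
These letters occurred 3 times in the TEK window, 4 times in FLT1, 1 time in KDR and 3 times in ENG, but GGAA on either strand is in 92.7% of the 35116 windows of that length. The FLT1, ENG and KDR windows had 73.2%, 69.6% and 65.2% GC, above the median window at 58%, and the TEK window lay below it at 46.4%. CG dinucleotides numbered 25 in FLT1 and 17 in KDR against 7 in ENG and 5 in TEK, with 11 in the median window. Neither TGANTCA, the AP-1 letters found in 6.57% of windows, nor GGAATG, the TEAD letters found in 11.9% and containing GGAA, was in any of the 4 windows on either strand. A match is a description of the letters only.

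In H69M against H69, 5 of the 8 tested members were higher and 1 was lower, against 35.9% of all tested genes called higher and 36.6% called lower. The rise covered TEK, FLT1, KDR, ENG and ANGPT2, and the fall was VWF. With only H69 and H69M in the fit, 5 of 6 tested members were higher and 1 lower, against 36.5% and 35.3% of tested genes. TEK, FLT1 and KDR had 0 or 1 count over the H69 libraries, so they passed the filter only through groups where they were higher. In both sorts too these genes passed only through groups where they were higher. In the PD-L1 high against the PD-L1 low fraction, 6 of 8 were higher and 1 lower, against 39.0% and 39.4% of tested genes. Here TEK, ANGPT1, FLT1, KDR, ENG and VWF rose, CDH5 fell, and ANGPT2 passed in neither direction. The PD-L1 low fraction against H69 had 3 members higher (ANGPT2, FLT1, CDH5) and 2 lower (VWF, ANGPT1), against 39.0% and 36.9% of tested genes. The filter ran over all 12 libraries of the H69 table, so members low in both of these groups could be tested through the other groups. With only these groups in the fit, 2 of 4 tested members were higher and 1 lower, against 37.9% and 37.8% of tested genes. In the HLA high against the HLA low fraction of H69EZ, 7 of 8 were higher and ANGPT2 was lower, against 41.1% and 40.2% of tested genes. In RPP-A against RPP, 4 of 7 were higher (Angpt1, Angpt2, Flt1, Eng) and Vwf was lower, against 37.6% and 40.6% of tested genes. The members' median log2 fold change was 2.09, 5.19, 1.1, 3.08 and 2.51 in these comparisons in the order given, and that of all tested genes lay between -0.0391 and 0.0199. The comparisons of H69M and of PD-L1 low with H69 share the H69 libraries, and those of PD-L1 low with PD-L1 high and with H69 share the PD-L1 low libraries. Calls here and below are from edgeR's quasi-likelihood test at an adjusted p of 0.05. Groups whose libraries do not overlap were common, at 72.9% of all tested genes in H69M against H69 and 80.1% in the PD-L1 sort. The share was 75.5% in PD-L1 low against H69, 90.2% in the HLA sort and 82.2% in RPP-A against RPP.

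**Figure D1:**
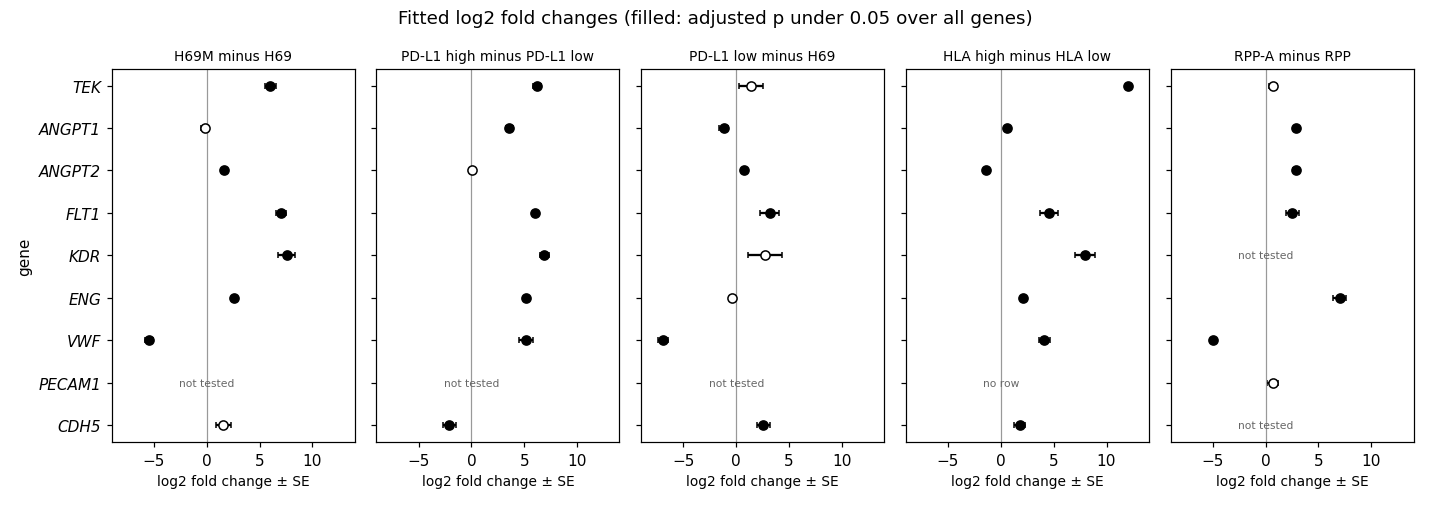
Log2 fold change (x axis) of each member (y axis) in each of the 5 comparisons, with bars of 1 standard error from the edgeR fit and filled points for genes called at an adjusted p of 0.05. TEK in the HLA sort lies farthest to the right at 12.01 and VWF lies left of 0 in H69M, in the PD-L1 low fraction against H69 and in RPP-A. For genes with no count in one group the plotted value depends on the fit's prior count and is no bound.

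Among the ligands, ANGPT1, the activating ligand of TEK, was at 0.402, 0.415 and 0.565 CPM in the 3 H69 libraries and at 0.494, 0.348 and 0.306 CPM in H69M. It was at 0.177, 0.232 and 0.145 CPM in the PD-L1 low fraction and at 2.79, 1.82 and 2.32 CPM in the PD-L1 high fraction. The PD-L1 high libraries were thus the only ones of the 12 above 1 CPM, H69 and H69M overlapped, and the PD-L1 low libraries lay below both. The change between the PD-L1 fractions was 3.57 ± 0.32 (log2 fold change ± SE), while H69M against H69 gave -0.21 ± 0.37 and was not called. In the PD-L1 low fraction against H69 ANGPT1 fell by 1.19 ± 0.45 on the log2 scale. That call rested on 2 to 11 counts per library and was lost without H69 replicate 3 (-1.09), without PD-L1 low replicate 1 (-1.11) and without PD-L1 low replicate 3 (-1.09).

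In H69EZ the ANGPT1 level was 11.1 and 11.7 CPM in the HLA low and 16.0 and 17.1 CPM in the HLA high fraction. The groups did not overlap, and the change of 0.53 ± 0.09 was the smallest of the 8 members in this sort. Mouse Angpt1 was at 2.20, 3.11 and 3.02 CPM in RPP and at 17.9, 18.4 and 23.9 CPM in RPP-A. Every RPP-A library lay above every RPP library, with a change of 2.84 ± 0.20.

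ANGPT2, the other ligand of TEK, was lowest in H69 at 3.46, 3.55 and 3.71 CPM and highest in unsorted H69M at 11.3, 11.3 and 10.4 CPM. The PD-L1 low fraction had 5.63, 7.07 and 5.49 CPM and the PD-L1 high fraction 5.87, 6.62 and 6.47 CPM. The fractions overlapped, so the order was H69, then both fractions, then H69M, and the line they were sorted from was above either of them. H69M exceeded H69 by 1.63 ± 0.11 and the PD-L1 low fraction exceeded H69 by 0.78 ± 0.13, whereas the PD-L1 fractions differed by 0.04 ± 0.12.

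In H69EZ the direction was the other way: ANGPT2 was at 6.15 and 8.26 CPM in the HLA low and at 2.88 and 2.53 CPM in the HLA high fraction. Both HLA high libraries lay below both HLA low libraries, a fall of 1.39 ± 0.13 on the log2 scale. Mouse Angpt2 was at 1.22, 1.80 and 1.41 CPM in RPP and at 8.47, 10.4 and 14.4 CPM in RPP-A, a rise of 2.90 ± 0.28 with no overlap. ANGPT2 lies within MCPH1, a gene of chromosome condensation, and strand use in counting was not given, so reads of one could be counted for the other. MCPH1 was at 59.7 CPM in H69 and 54.6 in H69M, and at 65.2 CPM in the HLA low and 43.5 in the HLA high fraction, where it fell by 0.58 ± 0.07. Its part in the ANGPT2 values was not tested.

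**Figure D2:**
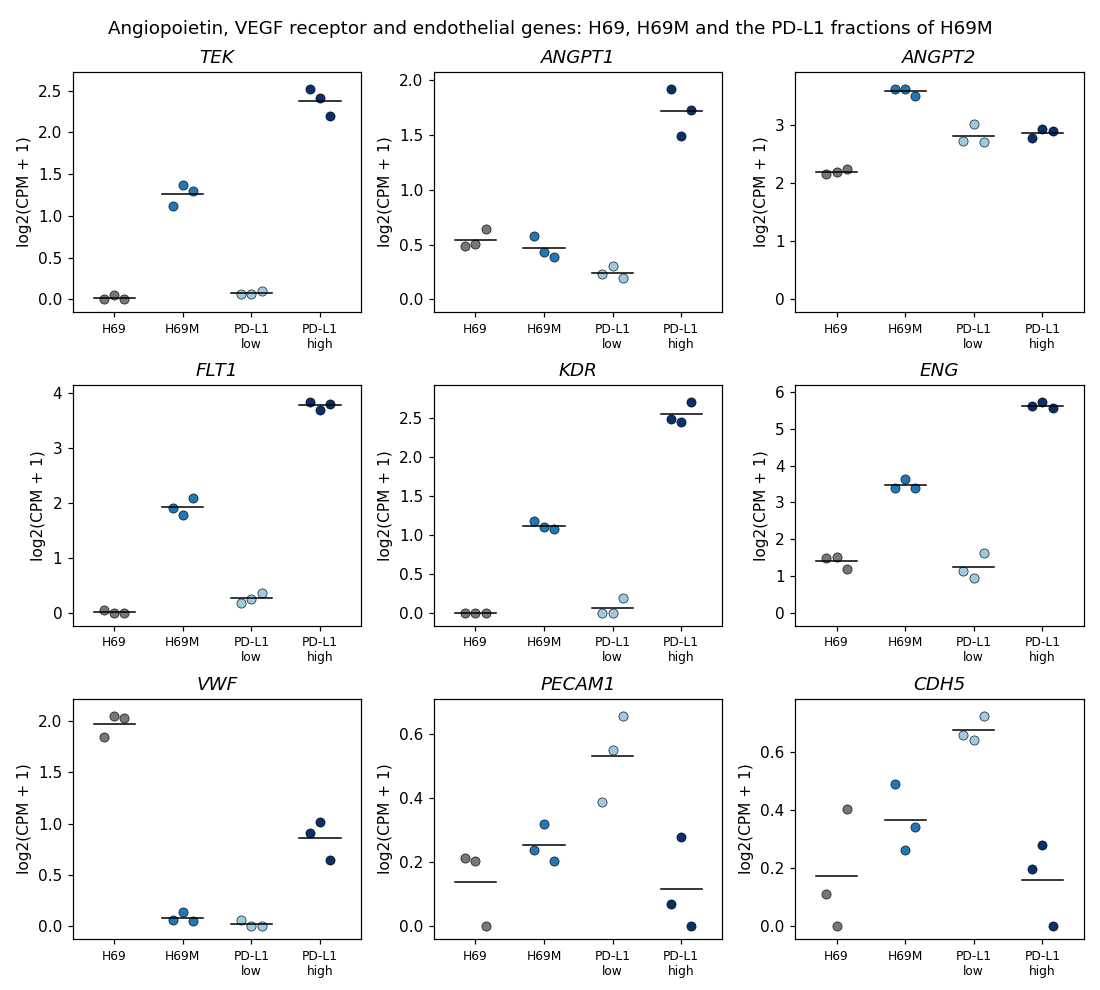
Level of each member as log2(CPM + 1) (y axis of each panel) in the 12 libraries of the H69 table, grouped on the x axis as H69, H69M, PD-L1 low and PD-L1 high, with points for libraries and bars for group means. TEK, FLT1, KDR and ENG share 1 shape with PD-L1 high on top and H69M second, ANGPT2 peaks in H69M, VWF is highest in H69, and PECAM1 and CDH5 are highest in PD-L1 low.

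Among the receptors, TEK was close to absent in H69, with 0, 1 and 0 counts in the 3 libraries (0, 0.0378 and 0 CPM). H69M had 1.17, 1.59 and 1.45 CPM. The PD-L1 low fraction had 0.0443, 0.0465 and 0.0723 CPM, which is 1 count in each library, and the PD-L1 high fraction had 4.75, 4.33 and 3.59 CPM. The order was H69 and PD-L1 low near 0, then H69M, then PD-L1 high, with no overlap among the last 3. TEK in H69M exceeded H69 by 6.01 ± 0.53 (7.80 without H69 replicate 2, which held its only count). As a ratio of summed counts this was 89.3, with a 95% counting interval of 15.7 to 3564. The PD-L1 high fraction exceeded the PD-L1 low by 6.20 ± 0.36, a count ratio of 82.8 with an interval of 28.0 to 404.

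The widest difference of any member was TEK in the H69EZ sort. It was at 0.0790 and 0.0232 CPM in the HLA low fraction and at 226 and 236 CPM in the HLA high fraction, or 5 counts against 20342. The change was 12.01 ± 0.16 (13.11 without HLA low replicate 1) and the count ratio 4317 (1849 to 13296). Intervals of this kind cover counting error only. Mouse Tek was at 1.96, 0.90 and 0.632 CPM in RPP and at 1.90, 2.07 and 1.56 CPM in RPP-A. The groups overlapped through EHK_RPP4, the change of 0.69 ± 0.40 was not called, and without that library it was 1.30 and called.

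FLT1, a receptor for VEGFA, VEGFB and PGF, had 1 count in H69 replicate 1 and none in the others (0.0402, 0 and 0 CPM). It was at 2.74, 2.44 and 3.25 CPM in H69M. In PD-L1 low it was at 0.133, 0.186 and 0.289 CPM and in PD-L1 high at 13.2, 11.9 and 12.9 CPM. All 4 groups were apart, in the order H69, PD-L1 low, H69M and PD-L1 high. FLT1 in H69M exceeded H69 by 7.02 ± 0.44, a count ratio of 181 (32.2 to 7202), and the PD-L1 high fraction exceeded the low by 6.01 ± 0.22. In the PD-L1 low fraction it exceeded H69 by 3.17 ± 0.90, a count ratio of 12.1 (1.76 to 521) that rests on 11 counts against 1. The single H69 count set these sizes: without H69 replicate 1 the 2 differences from H69 were 8.82 and 4.96, and without H69 replicate 2 they were 6.42 and 2.57.

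The FLT1 level in H69EZ was low in both fractions, at 0 and 0.0232 CPM in HLA low and at 0.240 and 0.391 CPM in HLA high. The change was 4.53 ± 0.87, a count ratio of 28.6 (4.72 to 1173), and it was 3.57 without HLA low replicate 1 and 6.84 without HLA low replicate 2. FLT1 stayed under 1 CPM in every H69EZ library. Mouse Flt1 was at 6.44, 1.04 and 0.914 CPM in RPP and at 16.5, 17.2 and 12.7 CPM in RPP-A. EHK_RPP4 was the high RPP library, and the change of 2.51 ± 0.63 became 4.02 without it. Counts per gene do not separate the soluble form of FLT1 from the membrane receptor.

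KDR, the main signalling receptor for VEGFA, had no count in any H69 library. It was at 1.26, 1.14 and 1.11 CPM in H69M, at 0, 0 and 0.145 CPM in the PD-L1 low fraction and at 4.6, 4.43 and 5.48 CPM in the PD-L1 high fraction. PD-L1 low overlapped H69 at 0, H69M lay above both and PD-L1 high above H69M. Against the level that 3 counts over the H69 group would give, KDR was at least 24.8-fold higher in H69M. The PD-L1 high fraction exceeded the low by 6.88 ± 0.42, a count ratio of 138 (37.9 to 1148), with 2 counts in the PD-L1 low group. That change was 6.22 without PD-L1 low replicate 1, 6.29 without replicate 2 and 9.65 without replicate 3, which held both counts. In H69EZ, KDR had no count in the HLA low fraction and was at 0.781 and 0.521 CPM in HLA high, at least 20.9-fold higher. Mouse Kdr did not pass the filter, at 0.652, 0.554 and 0.492 CPM in RPP and 0.271, 0.516 and 0.187 CPM in RPP-A, which overlapped.

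ENG, the coreceptor that hands BMP9 to its receptors, was at 1.81, 1.85 and 1.29 CPM in H69 and at 9.53, 11.4 and 9.56 CPM in H69M. The PD-L1 low fraction had 1.20, 0.930 and 2.10 CPM and the PD-L1 high fraction 47.7, 51.7 and 46.3 CPM. PD-L1 low overlapped H69, H69M lay above both, and PD-L1 high lay above H69M. ENG in H69M exceeded H69 by 2.55 ± 0.16 and the PD-L1 high fraction exceeded the low by 5.2 ± 0.15. PD-L1 low against H69 gave -0.38 ± 0.25 and was not called, but was called at -0.69 without PD-L1 low replicate 3.

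In H69EZ, ENG was at 1.66 and 1.16 CPM in HLA low and at 5.99 and 5.86 CPM in HLA high, a rise of 2.05 ± 0.15. Mouse Eng was at 4.32, 0.692 and 0.281 CPM in RPP and at 217, 224 and 212 CPM in RPP-A. EHK_RPP4 again was the high RPP library, yet far below any RPP-A library. The change was 7.01 ± 0.62 with all libraries and 8.82 without EHK_RPP4. ENG and FLT1 were the members called higher in all 4 comparisons of an MHC class I high with an MHC class I low population. Each of these called 35.9% to 41.1% of all tested genes higher, and the share called in all 4 was not computed. KDR was called higher in each human one and was not tested in the mouse lines.

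**Figure D3:**
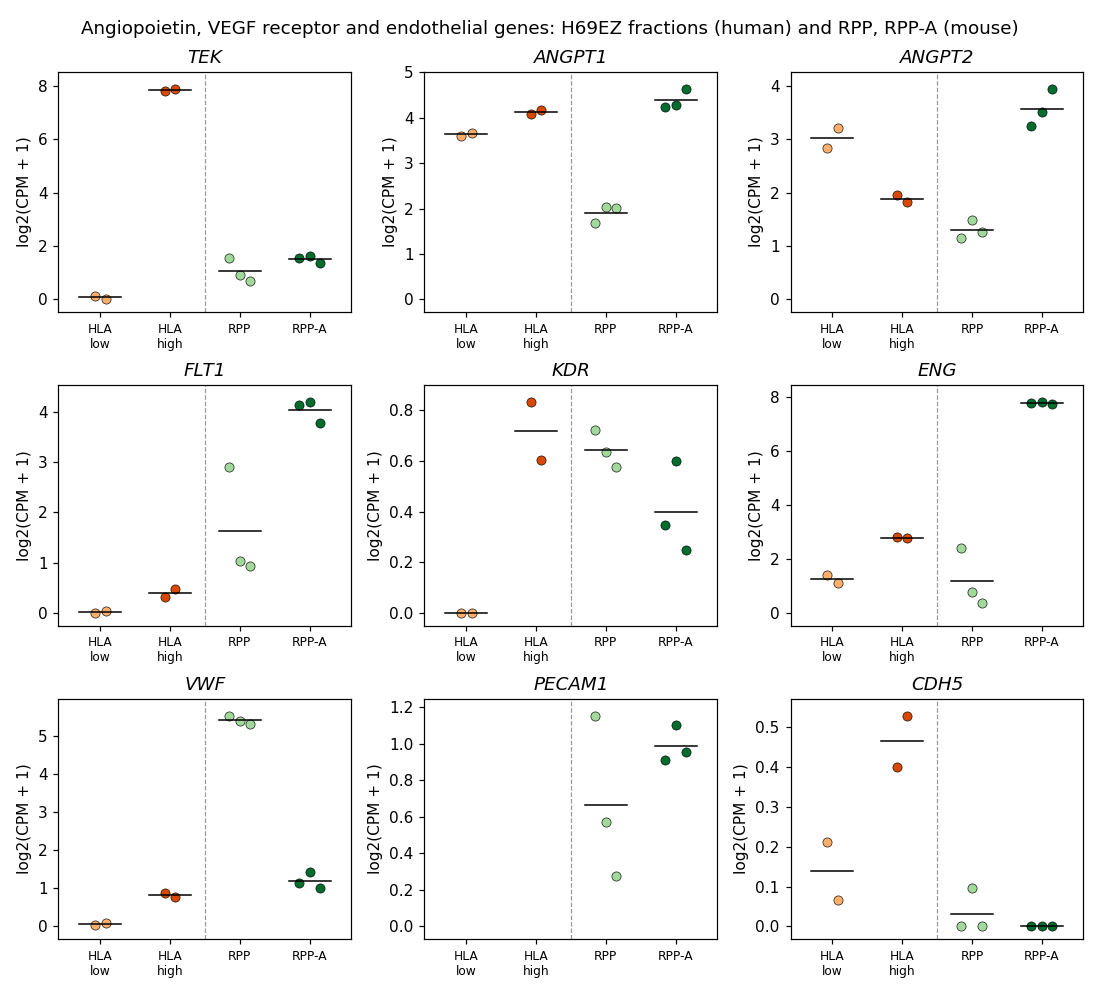
Level of each member as log2(CPM + 1) (y axis of each panel) in the HLA low and HLA high fractions of H69EZ (left of the dashed line) and in RPP and RPP-A (right), with points for libraries and bars for group means. The H69EZ and mouse tables were scaled separately and are not compared with each other, and PECAM1 has no row in the H69EZ table. TEK reaches 226 and 236 CPM in HLA high, Eng lies at 212 to 224 CPM in RPP-A, and Vwf falls from 38.7 to 44.9 CPM in RPP to 0.999 to 1.66 CPM in RPP-A.

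VWF, the clotting glycoprotein, was highest in H69 at 2.57, 3.13 and 3.07 CPM. In H69M it was at 0.0449, 0.0995 and 0.0382 CPM, or 1, 2 and 1 counts. In PD-L1 low the level was 0.0443, 0 and 0 CPM and in PD-L1 high 0.881, 1.01 and 0.563 CPM. H69 lay above PD-L1 high, which lay above H69M and PD-L1 low, and these last groups overlapped. VWF in H69M fell by 5.50 ± 0.37 against H69, and in the PD-L1 low fraction it fell by 6.96 ± 0.47, a count ratio of 168 (29.8 to 6675). Between the fractions it rose by 5.18 ± 0.65, a count ratio of 48.8 (8.33 to 1970.3). The single PD-L1 low count was in replicate 1, without which the last pair of changes was -8.87 and 7.06.

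In H69EZ, VWF was at 0.0198 and 0.0696 CPM in HLA low and at 0.841 and 0.704 CPM in HLA high, a rise of 4.11 ± 0.53 (3.43 without HLA low replicate 1, 5.12 without replicate 2). Mouse Vwf was at 44.9, 40.9 and 38.7 CPM in RPP and at 1.22, 1.66 and 0.999 CPM in RPP-A, with no overlap and a fall of 4.98 ± 0.19. Within each sort VWF was thus higher in the MHC class I high fraction, and in each unsorted pair it was lower in the MHC class I high line. Human VWF has a near-identical pseudogene copy, so part of its reads could be assigned either way, and its human values are uncertain in that respect.

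The junction genes were at low levels throughout. CDH5 was at 0.0805, 0 and 0.323 CPM in H69 and at 0.404, 0.199 and 0.268 CPM in H69M. It was at 0.576, 0.558 and 0.651 CPM in the PD-L1 low fraction and at 0.147, 0.214 and 0 CPM in the PD-L1 high fraction. PD-L1 low lay above the other 3 groups, which overlapped. CDH5 fell by 2.11 ± 0.61 from PD-L1 low to PD-L1 high and was 2.56 ± 0.63 higher in PD-L1 low than in H69 (1.82 without H69 replicate 2, 3.72 without H69 replicate 3). H69M against H69 gave 1.56 ± 0.71, not called, but called at 2.73 without H69 replicate 3 and at 1.74 without H69M replicate 2. It was also called with no filter on low counts (1.59) and with limma-voom (2.03). In H69EZ the level was 0.158 and 0.0464 CPM in HLA low and 0.320 and 0.443 CPM in HLA high, a rise of 1.79 ± 0.52. That rise was 2.94 without HLA low replicate 1, and without HLA low replicate 2 it was 1.23 and no longer called. Mouse Cdh5 had 1 count in all 6 libraries together and was not tested.

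PECAM1 was not tested in the H69 table, with 0.161, 0.151 and 0 CPM in H69 and 0.180, 0.249 and 0.153 CPM in H69M. The PD-L1 low fraction had 0.310, 0.465 and 0.578 CPM and the PD-L1 high fraction 0.0489, 0.214 and 0 CPM. As for CDH5, the PD-L1 low libraries were above all others, here with 7, 10 and 8 counts. Mouse Pecam1 was at 1.22, 0.484 and 0.211 CPM in RPP and at 0.881, 1.15 and 0.937 CPM in RPP-A. These overlapped through EHK_RPP4, and the change of 0.67 ± 0.53 was not called but was called at 1.53 without that library. No group of the series therefore held all of the defining endothelial markers TEK, KDR, PECAM1, CDH5 and VWF at 1 CPM or more.

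In the H69 table the unsorted H69M line lay between its fractions for the receptors. Its mean TEK level was 33.3% of that in the PD-L1 high fraction, KDR 24.2%, FLT1 22.2%, ENG 20.9%, ANGPT1 16.6% and VWF 7.43%. Counted from PD-L1 low at 0 to PD-L1 high at 100, the 3 H69M libraries were at 26.7 to 36.9 for TEK, 22.1 to 25.3 for KDR, 18.0 to 24.5 for FLT1 and 17.2 to 21.2 for ENG. The sorted protein's gene CD274 was at 24.6 to 35.2 and B2M at 16.5 to 19.2 on the same scale. ANGPT1 was at 5.71 to 14.6 and VWF at 2.92 to 10.5, below the receptors. ANGPT2 had no such position, since H69M at 10.99 CPM was above both fractions at 6.06 and 6.32.

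Across the 12 libraries of the H69 table, TEK, FLT1, KDR and ENG had Pearson r of 0.985 to 0.995 with each other on log2(CPM + 1). These libraries share 4 groups and 1 sort, so the values describe group structure and are given with no p. ANGPT1 had r of 0.846 with TEK, 0.856 with FLT1, 0.888 with KDR and 0.858 with ENG. VWF had r of -0.202 with FLT1 and -0.174 with TEK, and -0.795 with ANGPT2. Of 15444 other tested genes, the 3 most like TEK were IL31RA (0.998), GZMA (0.9976) and RPS6KA2 (0.997), and those most like FLT1 were ADAMTS10 (0.999), FAM198B (0.9983) and ITGA11 (0.9981). For KDR they were JAG1 (0.9974), CYTL1 (0.9973) and RPE65 (0.9972), and for ENG LPPR4 (0.9973), LTBP3 (0.9973) and VASN (0.9966). ANGPT1 was most like CBR3 (0.9876), ASPN (0.9864) and UFL1 (0.9862), ANGPT2 most like GNAT3 (0.984), CERK (0.9834) and DAAM1 (0.9817), and VWF most like MT2A (0.9929), PRKD1 (0.9907) and NAPA (0.9873).

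Ligands and partners of these receptors formed a list of 12 genes, of which 6 of 10 tested were higher and 1 lower in H69M, and between the PD-L1 fractions 6 of 10 were higher and 4 lower. In the PD-L1 low fraction against H69 4 were higher and 3 lower, in the HLA sort 7 of 9 were higher and 1 lower, and in RPP-A 7 of 10 were higher and 3 lower. The list's median log2 fold changes in that order were 0.825, 1.71, 0.909, 2.38 and 2.2. Of all tested genes, 35.9% were called higher and 36.6% lower in H69M, and 39.0% and 39.4% in the PD-L1 sort. These shares were 39.0% and 36.9% in PD-L1 low against H69, 41.1% and 40.2% in the HLA sort and 37.6% and 40.6% in RPP-A. This list and those below were chosen with earlier results known, so their changes too are a description given without p-values.

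VEGFA, the central ligand of KDR and FLT1, fell in both sorts, where FLT1 and KDR rose, and was called higher in H69M (0.83 ± 0.08) and in RPP-A. It was at 25.9 CPM ± 1.05 (SD, n = 3) in H69, 46.2 ± 5.43 in H69M, 197 ± 8.82 in PD-L1 low and 146 ± 10.1 in PD-L1 high, so that PD-L1 low was highest and both fractions lay above the unsorted line. The fall between the fractions was 0.44 ± 0.07 on the log2 scale. In H69EZ, VEGFA also fell, from 274 to 181 CPM (-0.60 ± 0.06). Mouse Vegfa rose from 97.1 CPM ± 64.1 (SD, n = 3) in RPP to 595 ± 68.2 in RPP-A (2.62 ± 0.42, and 3.35 without EHK_RPP4).

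VEGFC, the ligand of the lymphatic receptor FLT4 that also binds KDR, was at 2.36 CPM in H69, 6.22 in H69M, 0.229 in PD-L1 low and 17.8 in PD-L1 high. It rose by 6.17 ± 0.20 between the fractions and in the PD-L1 low fraction fell by 3.27 ± 0.30 against H69. In H69EZ it rose from 0.406 to 24.4 CPM (5.91 ± 0.15), and in the mouse lines from 3.85 to 37.4 CPM (3.31 ± 0.40, and 4.08 without EHK_RPP4). FLT4 itself went the other way, from 2.48 CPM in PD-L1 low to 0.227 in PD-L1 high (-3.28 ± 0.37). Mouse Flt4 fell from 3.56 to 0.255 CPM (-3.78 ± 0.42).

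PGF, a ligand of FLT1, was at 8.96, 24.0, 38.5 and 53.4 CPM in H69, H69M, PD-L1 low and PD-L1 high, and rose from 7.57 to 39.5 CPM in the HLA sort (2.38 ± 0.09). Mouse Pgf instead fell from 16.1 to 2.25 CPM (-2.83 ± 0.51, and -3.91 without RPPM3). VEGFB, another FLT1 ligand, stayed within 40.6 to 52.1 CPM in the H69 table, rose from 27.3 to 39.5 CPM in the HLA sort (0.54 ± 0.08) and from 26.7 to 39.0 CPM in the mouse lines (0.55 ± 0.13). With library totals the mouse value was 0.18 and not called. In the mouse lines the VEGF-D gene Figf rose from 0.531 to 62.2 CPM (6.83 ± 0.27). Angpt4, the third angiopoietin gene on the list, rose from 1 count in RPP to 9.31 CPM in RPP-A, a count ratio of 383 (68.4 to 15163.5). Its fitted change was 8.15 ± 0.61, with 7.51 without EHK_RPP4 and RPPM3 and 10.14 without RPP2.

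The neuropilins, coreceptors for VEGF, rose in both sorts. NRP1 was at 19.6 CPM in H69, 47.2 in H69M, 17.7 in PD-L1 low and 169 in PD-L1 high, rising by 1.29 ± 0.09 in H69M and by 3.28 ± 0.09 between the fractions. In H69EZ it rose from 20.5 to 158 CPM (2.95 ± 0.07) and in the mouse lines from 9.77 to 121 CPM (3.62 ± 0.28). NRP2 was at 51.5, 51.9, 19.9 and 151 CPM in the 4 groups of the H69 table, called between the fractions (2.94 ± 0.08) but not in H69M against H69. It rose from 77.7 to 162 CPM in the HLA sort (1.06 ± 0.07) and from 44.1 to 152 CPM in the mouse lines (1.79 ± 0.31, and 2.43 without EHK_RPP4 and RPPM3).

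TIE1, the orphan partner of TEK, had no count in H69 and was at 0.428 CPM in H69M, at least 9.30-fold higher. It was at 0.0536 CPM in PD-L1 low and at 1.09 in PD-L1 high (4.24 ± 0.53, and 4.95 and 3.62 without PD-L1 low replicates 1 and 2). In H69EZ it had no count in HLA low and was at 7.0 CPM in HLA high, at least 220.3-fold higher. PTPRB, the phosphatase that restrains TEK and KDR, was at 5.17, 7.75, 0.147 and 24.5 CPM in H69, H69M, PD-L1 low and PD-L1 high, a rise of 7.41 ± 0.21 between the fractions. It rose from 1.05 to 33.4 CPM in the HLA sort (4.99 ± 0.13). In the mouse lines Ptprb fell from 2.57 to 0.103 CPM (-4.53 ± 0.49, with -5.12 without RPPM2 and -3.89 without EHK_RPP4 and RPPM3), and Tie1 was not tested.

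**Figure D4:**
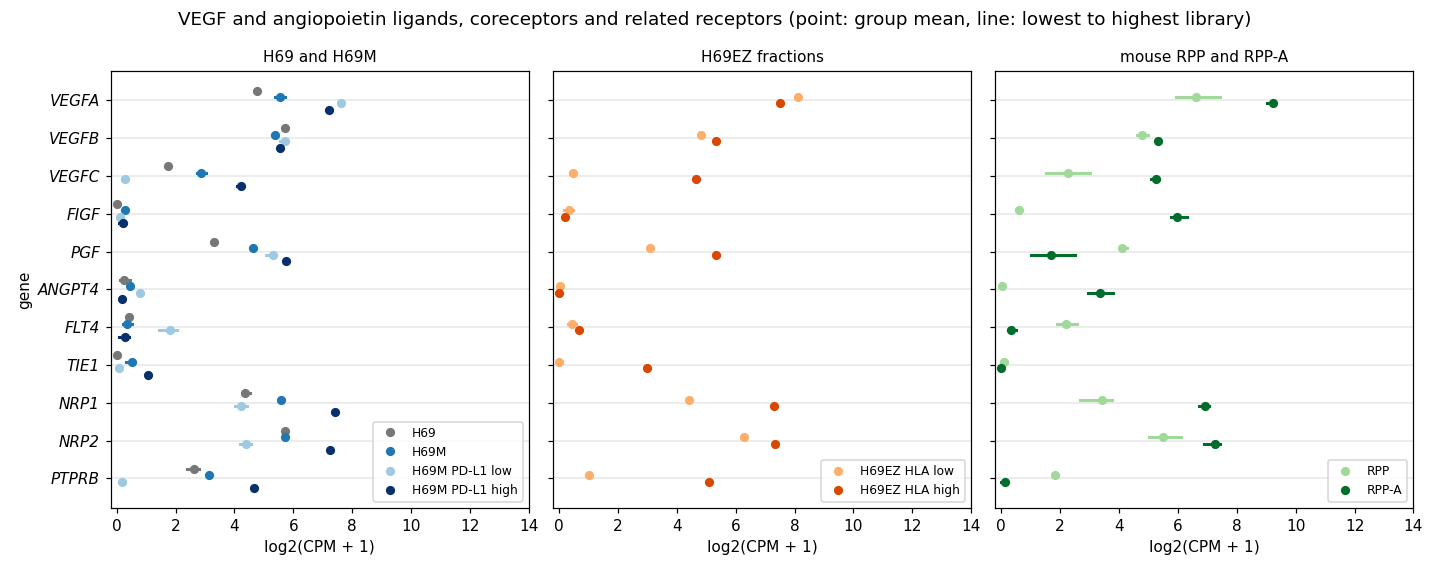
Level of the VEGF and angiopoietin ligands and coreceptors as log2(CPM + 1) (x axis), with a point for the group mean and a line from the lowest to the highest library, for each gene (y axis) and group. NRP1 and VEGFC are highest in PD-L1 high and HLA high, and VEGFA is lower in PD-L1 high (146 CPM) than in PD-L1 low (197 CPM).

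The list of 24 genes for the endoglin receptor complex and its BMP and TGF-beta readouts was mixed in the H69 table, with 9 of 22 tested higher and 10 lower in H69M and, in the PD-L1 high fraction, 12 higher and 7 lower. In the PD-L1 low fraction against H69 it had 10 higher and 10 lower, and in the HLA sort and in RPP-A it had 14 higher and 5 lower each. Over these comparisons 35.9% to 41.1% of all tested genes were called higher and 36.6% to 40.6% lower. TGFB1, a ligand of this family, was at 4.64 CPM in H69, 58.3 in H69M, 39.9 in PD-L1 low and 283 in PD-L1 high, and rose from 3.53 to 161 CPM in the HLA sort (5.51 ± 0.09). TGFBR3, the other accessory receptor of the family, rose by 2.76 ± 0.10 in H69M and by 3.38 ± 0.09 in PD-L1 low against H69. Between the fractions TGFBR3 fell, from 30.3 to 8.09 CPM in the PD-L1 sort (-1.90 ± 0.08) and from 15.6 to 5.54 CPM in the HLA sort (-1.49 ± 0.10), and mouse Tgfbr3 rose from 3.28 to 449 CPM (7.11 ± 0.23). The type II receptor gene TGFBR2 rose from 6.22 to 29.6 CPM between the PD-L1 fractions (2.23 ± 0.09) and from 3.06 to 25.0 CPM between the HLA fractions (3.02 ± 0.11).

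ACVRL1, which encodes ALK1, the receptor ENG works with, is given although it was chosen after its values were seen. It went against ENG in the H69 table, at 3.11 CPM in H69, 0.497 in H69M, 1.79 in PD-L1 low and 0.476 in PD-L1 high. It fell by 2.69 ± 0.27 in H69M and by 1.91 ± 0.33 between the PD-L1 fractions. In H69EZ it rose with ENG, from 2.26 to 8.50 CPM (1.91 ± 0.13), and mouse Acvrl1 rose from 0.291 to 17.04 CPM (5.82 ± 0.21). These differences in direction between the lines were not tested.

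The 25 endothelial transcription factors had 8 of 20 tested higher and 10 lower in H69M, 8 higher and 7 lower between the PD-L1 fractions, and 9 higher and 9 lower in PD-L1 low against H69. In the HLA sort 11 of 21 were higher and 7 lower, and in RPP-A 11 of 19 were higher and 7 lower. These counts stand beside 35.9% to 41.1% of all tested genes called higher and 36.6% to 40.6% called lower. EPAS1, the hypoxia-inducible factor of endothelium, was at 0.106 CPM in H69, 20.5 in H69M, 0.298 in PD-L1 low and 89.6 in PD-L1 high (7.47 ± 0.23 in H69M, and 8.40 ± 0.17 between the fractions or 9.09 without PD-L1 low replicate 3). FLI1, an ETS factor, was at 4.26 CPM in H69, 6.81 in H69M, 0.407 in PD-L1 low and 23.0 in PD-L1 high (5.96 ± 0.19 between the fractions). KLF2, the factor induced by blood flow, was at 0.0637, 2.37, 0.284 and 6.53 CPM in the same order.

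In the HLA sort FLI1 went from no count to 20.9 CPM, at least 649.7-fold higher, EPAS1 from 0.0215 to 6.82 CPM and the ETS factor ERG from 0.0430 to 4.39 CPM (6.59 ± 0.34). In the H69 table ERG was not tested, with no count in H69, 12 in H69M, 27 in PD-L1 low (0.445 CPM) and 5 in PD-L1 high (0.0902 CPM). In the mouse lines Erg fell from 6.08 to 0.141 CPM (-5.32 ± 0.54, and -6.36 without RPPM2). Prox1, the factor of lymphatic endothelium and of neuroendocrine cells, fell from 247 to 1.26 CPM (-7.61 ± 0.39), and Foxc2 rose from 0.592 to 17.9 CPM (4.96 ± 0.48, and 6.01 without EHK_RPP4).

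A separate list of 32 other endothelial markers was mostly low. In H69M 6 of 21 tested were higher and 11 lower, in PD-L1 high 11 higher and 8 lower, in PD-L1 low against H69 6 higher and 7 lower, in HLA high 14 of 23 higher and 8 lower, and in RPP-A 10 of 14 higher and 2 lower. For all tested genes the shares in these comparisons were 35.9% to 41.1% higher and 36.6% to 40.6% lower. Between 16 and 20 of the 32 were under 1 CPM in each human group, 22 in RPP and 18 in RPP-A. Summed over the list, libraries had 124 to 129.8 CPM in H69, 88.3 to 92.7 in H69M, 99.8 to 104 in PD-L1 low and 140.3 to 156 in PD-L1 high. The HLA low libraries had 102 to 103 CPM and the HLA high 169.8 to 176, and RPP had 99.5 to 124 and RPP-A 929 to 1138.

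ROBO4, CLEC14A, PLVAP, LYVE1 and CD93, all named for endothelium, were among the 8 with no count in H69. LYVE1 and CD93 had none in PD-L1 high, LYVE1 was the only one without a count in HLA high, and Cldn5, Esam and Emcn were among the 6 with none in RPP-A. ROBO4, the receptor of the stable vessel wall, was at least 37.8-fold higher in H69M than in H69, where it had no count. VCAM1, the leukocyte adhesion molecule, rose from 0.472 to 43.7 CPM between the PD-L1 fractions (6.70 ± 0.21, and 7.30 without PD-L1 low replicate 3) and from 0.00988 to 53.0 CPM between the HLA fractions. CD34, of endothelium and blood progenitors, rose from 0.0396 to 4.56 CPM between the PD-L1 fractions (6.80 ± 0.39, and 6.14 without PD-L1 low replicate 1). GJA4, an arterial connexin, fell from 1.86 CPM in H69 to 1 count in H69M (-6.53 ± 0.49, and -8.25 without H69M replicate 3). In the mouse lines S1pr1, the sphingosine receptor of endothelium, rose from 0.244 to 144 CPM (9.15 ± 0.31) and the thrombomodulin gene Thbd from 0.508 to 124 CPM (7.96 ± 0.25, and 8.64 without EHK_RPP4). Dll4, the tip cell ligand, went from 4.95 CPM in RPP to no count in RPP-A, at least 82.02-fold lower.

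Markers of other cell types moved in the same comparisons. Of 16 platelet markers, 4 were tested in the H69 table, with 3 higher and 1 lower in H69M, 2 higher and 2 lower in PD-L1 high, and 3 higher and 0 lower in PD-L1 low against H69. In the HLA sort 2 of 8 were higher and 4 lower, and in RPP-A 3 of 4 were higher. The comparisons called 35.9% to 41.1% of all tested genes higher and 36.6% to 40.6% lower. The platelet chemokine gene PPBP had no count in any human group, and PF4 had none in H69, H69M, PD-L1 low and HLA low. Mouse Ppbp went from no count in RPP to 11.95 CPM ± 6.52 (SD, n = 3) in RPP-A, at least 163-fold higher. The list's sum was 29.6 to 30.7 CPM in PD-L1 low and 109 to 117 in PD-L1 high. It was 14.8 to 15.5 in HLA low and 79.9 to 80.3 in HLA high, and in both high fractions most of it was ITGB3, an integrin subunit also made outside platelets. ITGB3 rose from 19.3 to 109 CPM in the PD-L1 sort (2.49 ± 0.06) and from 0.672 to 74.4 CPM in the HLA sort (6.78 ± 0.12). ITGA2B, the partner subunit that marks platelets, fell from 8.21 to 1.14 CPM (-2.87 ± 0.20) and from 6.98 to 0.609 CPM (-3.53 ± 0.18). In the other comparisons ITGA2B was called higher, in H69M by 0.97 ± 0.28 (0.68 and not called without H69 replicate 2). In PD-L1 low it exceeded H69 by 3.51 ± 0.21, and mouse Itga2b rose from 1.70 to 8.64 CPM (2.36 ± 0.28).

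Of 12 leukocyte markers, 4 of 6 tested were higher and 1 lower in H69M, 4 higher and 2 lower in PD-L1 high, 2 higher and 3 lower in PD-L1 low against H69, 6 of 7 higher and 1 lower in HLA high, and 2 of 3 higher and 1 lower in RPP-A. Among all tested genes 35.9% to 41.1% were called higher and 36.6% to 40.6% lower. CD53 and CD3E had no count in any group of the H69 table. ITGB2 rose by 2.53 ± 0.25 in H69M and by 4.95 ± 0.25 between the PD-L1 fractions. It rose by 4.01 ± 0.24 in the HLA sort and by 5.23 ± 0.52 in RPP-A (6.57 without EHK_RPP4). CSF1R rose by 2.94 ± 0.46 in H69M, by 3.73 ± 0.37 between the PD-L1 fractions and by 4.89 ± 0.65 in RPP-A (8.24 without EHK_RPP4). The highest group means in the H69 table were 6.10 CPM for ITGB2 and 2.61 for CSF1R. Mouse Coro1a fell in RPP-A (-5.93 ± 0.33). PTPRC, which encodes CD45, was at 1.35 CPM in H69 and 0.100 in H69M (-3.69 ± 0.45, and -4.82 without H69M replicate 1), while LCP1, an actin bundler, carried most of the list's sum in HLA high at 372 CPM. The list summed to 36.2 to 39.4 CPM in H69, 129.9 to 134 in H69M, 59.9 to 66.6 in PD-L1 low, 258 to 279 in PD-L1 high, 12.3 to 13.3 in HLA low and 399.8 to 404 in HLA high. In RPP it was 23.3 to 37.1 CPM and in RPP-A 6.84 to 8.30.

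Mural cell markers, of the pericytes and smooth muscle that wrap vessels, were called higher in 11 of 11 tested in H69M and in PD-L1 low against H69 (7 of them with only those groups in the fit). They were higher in 9 and lower in 2 of 11 in PD-L1 high, higher in 10 and lower in 2 of 12 in HLA high, and higher in 6 and lower in 1 of 9 in RPP-A. The shares over all tested genes were 35.9% to 41.1% higher and 36.6% to 40.6% lower. The sum went from 45.3 to 51.2 CPM in H69 and 137 to 173 in PD-L1 low to 660.2 to 681 in H69M and 2193 to 2353 in PD-L1 high. It was 158 to 160.1 CPM in HLA low and 1214 to 1292 in HLA high, while RPP libraries had 32.8 to 69.9 CPM and RPP-A libraries 2634 to 3387. PDGFRB, the pericyte receptor, went from no count in H69 to 13.9 CPM in H69M and so was at least 295-fold higher there. The list's median in H69M was 8.12, or 7.41 with genes at 0 in H69 set to their bounds, and in PD-L1 low against H69 it was 4.55, or 2.88 at the bounds.

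Of 10 fibroblast markers tested, 9 were higher and 1 lower in H69M, 7 higher and 1 lower in PD-L1 high, and 8 higher and 2 lower in PD-L1 low against H69. In HLA high 10 of 11 were higher and 1 lower, and in RPP-A 9 of 10 were higher and 1 lower. Beside these counts, 35.9% to 41.1% of all tested genes were called higher and 36.6% to 40.6% lower. COL1A1, a fibrillar collagen, was at 1.59 CPM in H69, 1270.1 in H69M, 49.5 in PD-L1 low and 5875 in PD-L1 high, and rose from 9.82 to 9296 CPM in the HLA sort. The fibroblast sum was 678 to 709 CPM in H69, 3090.1 to 3332 in H69M, 637 to 737 in PD-L1 low and 11504 to 11792 in PD-L1 high, so that PD-L1 low overlapped H69. That overlap is of the sum only, since 8 of the 10 tested markers were called higher in PD-L1 low than in H69 and 2 lower. From H69 to PD-L1 low, COL3A1 rose from 0.115 to 10.8 CPM and LUM from 0.0395 to 2.72 CPM. COL1A1, COL3A1 and LUM made up little of the sum in H69. The summed mural and fibroblast levels were thus higher in H69M than in H69 and in PD-L1 high than in PD-L1 low, where TEK, FLT1, KDR and ENG were higher too, and the part of those cell programmes in the levels of TEK, FLT1, KDR and ENG was not tested.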

How the data were processed

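Per the labels' protocols, the 22 RNA libraries were made from 250 ng of total RNA with an exome capture kit and read on an Illumina NextSeq. The authors deposited whole-number read counts per gene in 3 tables, without normalization. The submitters' processing notes name STAR 2.6.1 and the genome builds hg19 and mm10; for the counting program, gene annotation and strand use they give nothing (not given in the sources used here). Overlapping genes are therefore uncertain. The tables list 25435 (H69), 20113 (H69EZ) and 24047 (mouse) genes.

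Groups come from the labels. The mouse columns show a group but not which replicate, and RPPM in their names was read as RPP-A. Nothing says that replicates came from separate cultures, so p-values reflect variation among these libraries only, possibly technical. RPPM1 and RPPM2 were the closest replicates (chi-square per degree of freedom 1.33, others 2.21 or more).

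Each table was fitted once in R 4.3.3 with edgeR 4.0.16 (limma 3.58.1): filterByExpr at a minimum count of 10, TMM scaling, 1 coefficient per group and a two-sided quasi-likelihood F-test with Benjamini-Hochberg adjustment over the 15445, 14819 and 14032 tested genes, threshold 0.05. SE is the absolute log2 fold change divided by the root of F. The code was tested on simulated data. Groups at 0 were set to 3 counts over the group, and ratios of low counts carry 95% intervals for counting error only.

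The members and lists were chosen with earlier results of these data known. The text names every member; all VEGF and angiopoietin ligands and coreceptors with a group mean of at least 1 CPM; from other lists genes among the 3 largest called changes per comparison; and the 3 genes most like each member. The lists were VEGF and angiopoietin ligands and coreceptors, endoglin complex and readouts, endothelial transcription factors, and markers of endothelium, platelets, leukocytes, mural cells and fibroblasts. Alternatives were other filters, DESeq2 1.42.0 size factors and test, library totals, limma-voom, only the groups compared, the replicate number as a block, mitochondrial genes left out, and libraries left out in turn. Same-numbered libraries did not deviate together (r from -0.321 to 0.228), so no block was used.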

Additional observations from a re-analysis of the deposited data

Results flagged for a closer look

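ANGPT2, VWF and CDH5 are listed here because their changes had opposite signs between comparisons of an MHC class I high with an MHC class I low population, with the libraries of each comparison not overlapping; the difference between the comparisons was not tested. For VWF the signs differ between the comparisons of 2 lines and both sorts, and for CDH5 between the 2 sorts. For ANGPT2 they differ between the comparisons of 2 lines and the HLA sort only. Between the PD-L1 fractions ANGPT2 overlapped and was not called (0.04 ± 0.12). The log2 fold change of ANGPT2 was 1.63 (1.62587) in H69M against H69 and 2.90 (2.89533) for mouse Angpt2 in RPP-A against RPP, but -1.39 (-1.3931) in the HLA high against the HLA low fraction. VWF changed by -5.50 (-5.49557) in H69M against H69 and mouse Vwf by -4.98 (-4.98497) in RPP-A against RPP. Within the sorts it changed by 5.18 (5.17638) between the PD-L1 fractions and by 4.11 (4.10582) between the HLA fractions. CDH5 changed by -2.11 (-2.11498) between the PD-L1 fractions and by 1.79 (1.78587) between the HLA fractions. The lower groups of these CDH5 changes held 7 counts (PD-L1 high) and 10 counts (HLA low).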

How the results depend on the processing

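Of the members' log2 fold changes recomputed under the alternatives, 101 of 105 in H69M against H69, 102 of 107 in the PD-L1 sort, 98 of 102 in PD-L1 low against H69, 90 of 91 in the HLA sort and 92 of 96 in RPP-A against RPP kept their direction and their side of the threshold. Counts of members changed mainly where fewer or more passed the filter. At a minimum count of 100, 3 of 3 tested members were higher in H69M and 2 of 3 in the PD-L1 sort, with 0 lower in each. In PD-L1 low against H69, 2 of 3 were higher and 0 lower, and in the HLA sort 3 of 4 were higher and 1 lower. That setting called 38.0% of all genes higher and 37.4% lower in H69M, and in the other 3 of these comparisons, in that order, 39.0% and 41.8%, 41.5% and 37.1%, and 41.8% and 41.5%. Without a filter, 6 of 9 members were higher and 2 lower in the PD-L1 sort, against 29.9% and 32.8% of all genes. With only the groups compared in the fit, 2 of 4 members were higher and 1 lower in PD-L1 low against H69, against 37.9% and 37.8%. ANGPT2 in the PD-L1 sort, which was not called, changed sign at a minimum count of 100 (-0.003372), with library totals (-0.09528), and without PD-L1 low replicate 1 (-0.05926), PD-L1 low replicate 3 (-0.00774) or PD-L1 high replicate 3 (-0.005706), the highest value with a library left out being 0.1766. So did NRP2 in H69M against H69, also not called, without H69 replicate 1 (-0.007628), H69 replicate 2 (-0.0141) or H69M replicate 1 (-0.002002; highest 0.07624), and VEGFB in PD-L1 low against H69 without H69 replicate 2 (-0.01769), PD-L1 low replicate 1 (-0.001691) or PD-L1 low replicate 3 (-0.03211; highest 0.1002). The cause of these was not tested. With 1 library left out in turn, members higher and lower ranged from 5 to 6 and 1 to 1 in H69M, 6 to 6 and 1 to 2 in the PD-L1 sort, 3 to 4 and 1 to 2 in PD-L1 low against H69, 6 to 7 and 1 to 1 in the HLA sort, and 4 to 6 and 1 to 1 in RPP-A, while the share of all genes called stayed within 33.7% to 41.9% higher and 34.0% to 40.9% lower. With the replicate number as a block, members higher and lower were 5 and 1 in H69M, 6 and 1 in the PD-L1 sort, 3 and 2 in PD-L1 low against H69 and 7 and 1 in the HLA sort, against 35.0% to 41.1% of all genes higher and 35.6% to 40.1% lower. No paired analysis was possible for the mouse lines because their columns are known by group only. Depth limits TEK, FLT1, KDR and VWF, whose lower groups in the human lines rest on 0 to 11 counts. It also limits CDH5, with 6 counts in H69, 7 in PD-L1 high and 10 in HLA low, and ANGPT1, with 11 in PD-L1 low.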
